A study of Mus musculus with 89 samples.

Results

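The cells described here are 9 quiescent neural stem cells (qNSC) of the mouse dentate gyrus that carry the same blue colour code in the annotation deposited with the data. They were set against the other 51 qNSC, of which 26 carry a red and 25 a green code. The 60 qNSC are part of 89 cells, with 18 cells classed as aNSC and 11 as IPC (read as activated stem cells and intermediate progenitors). The blue subset held 4 cells of mice aged 2 months and 5 cells of mice aged 4.5 months, and the other qNSC held 28 and 23. Blue cells made up 12.5% of the 32 qNSC at 2 months (exact Clopper-Pearson 95% interval 3.51 to 28.99) and 17.9% of the 28 at 4.5 months (6.06 to 36.9). These intervals treat cells as independent draws and leave out differences between animals, so they do not compare the ages.

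All cells came from C57BL/6 mice homozygous for Nestin:CFPnuc (B6.Cg-Tg(Nes-CFP)1Enik/J), in which regulatory elements of the Nestin gene drive a fluorescent protein into the nucleus. The cells were sorted from dissected tissue by flow cytometry with propidium iodide, a dye that enters dead cells, and each was sequenced as its own full-length SMART-Seq v4 library. The labels tie no cell to an animal, so each side was treated as 1 pooled sample. Differences are therefore given as sizes, with the SD over cells, and without a test. The meaning of the colour codes is not given in the sources used here. They may have been drawn from these same expression values, and a difference between them would then be built in.

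Dentate gyrus stem cells are radial glia-like cells that share much of their gene expression with astrocytes, including lipid carriers, glutamate transporters and the filament protein Gfap. In quiescence they rest outside the cell cycle, and on activation they raise protein synthesis and give rise to neuronal progenitors. S100b, a calcium-binding protein, marks mature astrocytes more than stem cells, and Stmn1, a microtubule regulator, marks progenitors and immature neurons.

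The blue cells were shallower and held fewer well-covered genes than the other qNSC. Total counts ran from 234607 to 1415444 in the 9 blue cells, with a median of 793965, against 244697 to 1486350 in the 51 others, with a median of 1004304. Genes with at least 1 read had medians of 3405 in blue cells and 3724 in the others. Genes with 10 or more reads had a median of 1646 in blue cells (503 to 3397), against 2990 in the others (1775 to 4234). After each cell had been thinned to 200000 reads, these medians were 1433 and 2589 genes. In 5 of the 9 blue cells the number of genes with 10 or more reads lay below the lowest of the 51 others. The remaining 4, of which 3 were from 2-month mice and 1 from a 4.5-month mouse, lay within the range of the others, and results are also given for these 4 alone. That choice was made after the data had been seen.

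Counts in the blue cells were concentrated in few genes. The 20 genes with the most counts in a cell took 26 to 38.5% of the counts in blue cells, with a median of 29.7%, against 14.1 to 28.4% in the others, with a median of 21.8%. In 5 blue cells this share exceeded that of every other qNSC, while 5 of the 51 other cells lay above the lowest blue cell. The medians were 27.4% against 20.6% at 2 months and 35.9% against 23.2% at 4.5 months.

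**Figure D1:**
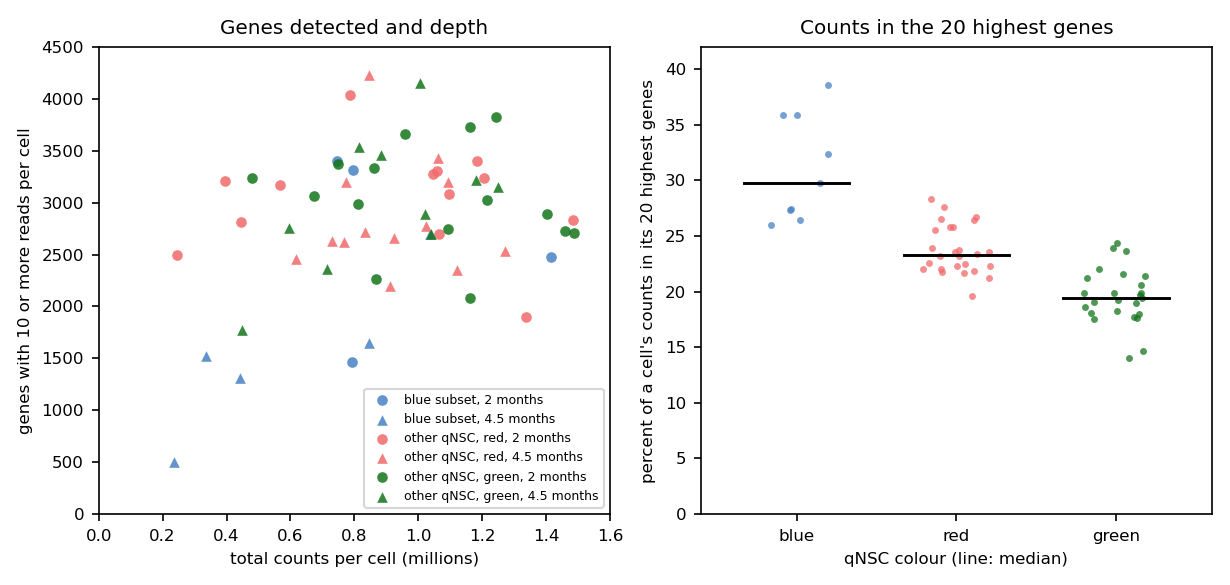
Left, genes with 10 or more reads against total counts in each of the 60 qNSC, with circles for 2 months and triangles for 4.5 months. Right, the percentage of each cell's counts in its 20 highest genes (points, cells; line, median); 5 of the 9 blue cells lie below all others on the left and 5 above all others on the right.

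Where the counts went could be read from the most abundant transcripts, which were singled out after their values had been seen. Cst3 (chromosome 2, 148871722 to 148875692, mm10) encodes cystatin C, a secreted inhibitor of cysteine proteases. It took 37649 to 81305 counts per 1000000 counts (CPM) in the 9 blue cells, with a median of 56665, against 6710 to 44132 CPM in the 51 others, with a median of 22763. Its level exceeded the highest other qNSC in 8 of the 9 blue cells, and 3 of the 51 others lay above the lowest blue cell. Mean log2(CPM + 1) was 15.82 ± 0.30 in the blue cells and 14.35 ± 0.60 in the others (SD over cells), a difference of 1.47. The difference was 1.45 in the 4 blue cells with as many well-covered genes as the others. Medians were 58438 CPM in blue cells against 22072 CPM in the others at 2 months, and 56665 against 25993 CPM at 4.5 months. Among the other qNSC the median was 27542 CPM in red and 15424 CPM in green cells, and aNSC and IPC had 4360 and 1159 CPM.

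The other leading transcripts overlapped more between the sides. Apoe, the lipid carrier of glial lipoproteins (chromosome 7, 19696109 to 19699188), had 29329.7 to 79854 CPM in blue cells with a median of 43217, against 10292 to 45176 with a median of 29206. All 9 blue cells lay above the median of the others and 3 above their maximum. Clu, a secreted chaperone that also binds lipids, had medians of 24018 CPM in blue cells and 15989.5 CPM in the others. Malat1, a nuclear long non-coding RNA, ran from 11283 to 123391 CPM in blue cells and from 2162 to 76748 CPM in the others. It stood high in 2 of the 4.5-month blue cells, while the blue median of 20949.6 CPM lay below the 28245 CPM of the others. Together these 4 genes took 12.6 to 23.8% of the counts of a blue cell, against 4.77 to 15.4% in the others, with medians of 17.3% and 8.99%. In the 4 blue cells within the others' range in well-covered genes the share was 12.6 to 14.7%.

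A size rule was then applied to 2883 measured genes, those read in 50% or more of the blue cells or of the other cells. It asked for a difference of at least 1 in both the mean and the median log2(CPM + 1) and for a ratio of mean CPM of at least 2, all in the same direction. By this rule 5.38% of the measured genes were higher in the blue subset, and 623 genes (21.6%) were lower. The median difference over all 2883 genes was −0.85, and 72.5% of them were lower in the blue cells, so gene lists are read against that shift. The shift itself depended on the cells and on the detection limit. Over the same genes it was −0.18 with 2-month cells only and −1.28 with 4.5-month cells only. With genes read in 20% of the cells of a side it was −0.51, and without a limit 0. In the 4 blue cells within the range of the others the median over the same genes was 0.33, with 217 genes higher and 405 lower. Of those 4 cells 3 were from 2-month mice, and 4 of the 5 blue cells left out were from 4.5-month mice, so age and the number of well-covered genes cannot be told apart in this comparison. The part of depth in the excess of lower genes was not tested.

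Genes of stem cell identity were mostly lower over the 9 blue cells. Of 30 genes listed for stem cell and radial glia identity 19 were measured, 18 were lower and 8 met the rule, all of them lower, with a median difference of −1.27. The summed level of the list was 18950.2 to 42466 CPM in the blue cells with a median of 26542, against 20171 to 59860.0 CPM with a median of 39539 in the others. The blue and other cells overlapped, with 7 of the 9 blue cells below the median of the others. Aldoc, Slc1a3 and Mfge8 made up most of this sum, and none of them met the rule. Their mean levels in blue cells were 11021, 7289 and 6886 CPM. The median difference kept its sign in the 25 other settings tried, but was −0.03 in the 4 blue cells within the range.

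Gfap (chromosome 11, 102887336 to 102900912) had 0 CPM in the lowest, 33.5 in the median and 1212 in the highest blue cell, against 0, 422 and 5144 CPM in the others. It had 10 or more reads in 5 of 9 blue cells and 48 of 51 others. Mean log2(CPM + 1) was 4.45 ± 3.86 in the blue cells and 8.00 ± 2.45 in the others (SD over cells), a difference of −3.56. All 4 blue cells within the range had 10 or more Gfap reads, and there the difference was −0.38.

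The transcription factors of neural stem cells followed the same pattern to differing degrees. Sox2, which maintains stem cell identity, had a highest level of 84.8 CPM and a median of 0 in the blue cells, against a highest level of 388 CPM and a median of 89.9 CPM. It reached 10 reads in 2 of 9 blue cells and 37 of 51 others, and the difference of −3.87 was still −2.25 in the 4 cells. Sox9, a regulator of glial fate, had 0, 145.3 and 605 CPM in the lowest, median and highest blue cell, against 0, 384 and 862 CPM in the others. Its difference of −2.49 was 0.10 in the 4 cells. Hopx, a homeodomain gene linked to quiescence, had 12.8 to 2020.2 CPM in blue cells with a median of 1084, against 149 to 6972 CPM with a median of 2515. None of the 9 blue cells lay above the median of the others, and the difference was −1.71, or −0.61 in the 4 cells.

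Fabp7, the fatty acid carrier of radial glia, had 10 or more reads in 4 of 9 blue cells and 46 of 51 others. Its highest level was 265 CPM in the blue cells and 7272 CPM in the others, with medians of 0 and 417 CPM. The 4 blue cells with Fabp7 reads were those within the range, where the difference of −4.67 was −0.53. Hes5, a Notch target, differed by −1.92, Nr2e1, the stem cell nuclear receptor, by −1.48, and Id2, an inhibitor of differentiation factors, by −1.21. Id3 and Id4, of the same family, differed by −0.41 and −0.40 and did not meet the rule, nor did Aldoc at −0.64 or the glutamate transporter Slc1a3 at −0.22. Nes itself reached 10 reads in 0 of the 9 blue cells and 1 of 51 others.

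Of the 3 genes given to mark the subset, Stmn1 was also low. It had 10 or more reads in 2 of 9 blue cells and 33 of 51 others, with medians of 0 and 95.7 CPM and highest levels of 276 and 1573 CPM. The difference was −3.33, and −1.58 in the 4 cells. Among the others 13 of 26 red and 20 of 25 green cells had 10 or more Stmn1 reads. Stmn1 differed by −1.85 against red cells and by −4.86 against green cells. S100b had 0, 126 and 1198 CPM in the lowest, median and highest blue cell, against 0, 17.6 and 846 CPM in the others. It reached 10 reads in 6 of 9 blue cells and 26 of 51 others. Its difference of 1.43 did not meet the rule, since the ratio of mean CPM was 1.86. Among the others 20 of 26 red cells but 6 of 25 green cells had S100b, and the difference was −0.67 against red cells and 3.63 against green cells. Gfap differed by −3.06 against red and by −4.07 against green cells, so it was lower than in both colours.

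**Figure D2:**
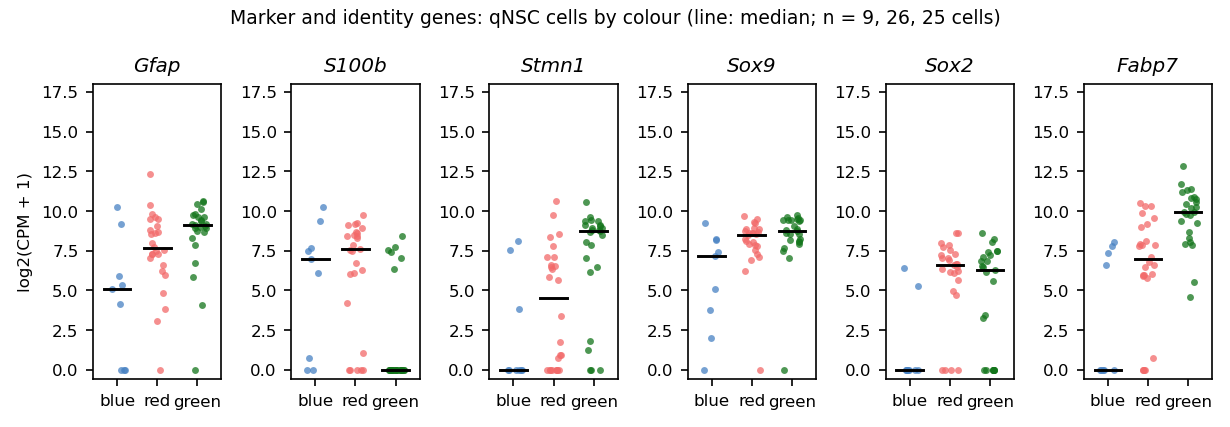
log2(CPM + 1) of 6 marker and identity genes in each qNSC by colour (points, cells; line, median). Medians of Stmn1, Sox2 and Fabp7 are at 0 in the 9 blue cells, whereas S100b covers a similar range in blue and red cells and is mostly at 0 in green cells.

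Genes of mature astrocytes were not lower as a group. Of 30 listed genes 27 were measured, 17 were higher in blue cells and 10 lower, and 3 met the rule, all higher. The median difference was 0.28, against −0.85 for all measured genes, and 0.60 in the 4 cells. All measured genes with a mean log2(CPM + 1) of 9 or more had a median of −0.23. Part of the list is that abundant, Cldn10, Ntsr2 and Gja1 among them. The summed level of the list was 27581 to 49860.2 CPM in blue cells with a median of 39788, against 11004 to 48100.3 CPM with a median of 29586. In 8 of 9 blue cells it exceeded the median of the others. Red cells had a median of 36692 CPM and green cells 18524 CPM. Against red cells alone the median difference turned to −0.50.

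The 3 genes that met the rule sit at the cell surface. F3, tissue factor, which starts blood coagulation, had 990.4 to 6134 CPM in blue cells with a median of 3232, against 0 to 6879 CPM with a median of 976. All 9 blue cells lay above that median, and the difference was 2.28. Mean log2(CPM + 1) of F3 was 11.44 in blue, 10.37 in red and 7.90 in green cells. Cldn10, a claudin of cell junctions (chromosome 14, 118787908 to 118875489), had 2004 to 10622 CPM in blue cells with a median of 4181, against 0 to 4824 CPM with a median of 1963. All 9 blue cells lay above the median of the others and 3 above their maximum. Kcnj10, the inward-rectifying potassium channel of astrocytes, had medians of 226 and 104 CPM and differed by 1.71. F3 and Kcnj10 did not meet the rule with each blue cell left out in turn. Of the list members with like levels, Gja1, the gap junction protein connexin 43, had medians of 2721 and 2897 CPM, and Mlc1, a membrane protein of astrocyte endfeet, 1951 and 2146 CPM. Aqp4, the water channel, differed by −1.09 and Fgfr3 by −2.03, neither past the rule.

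**Figure D3:**
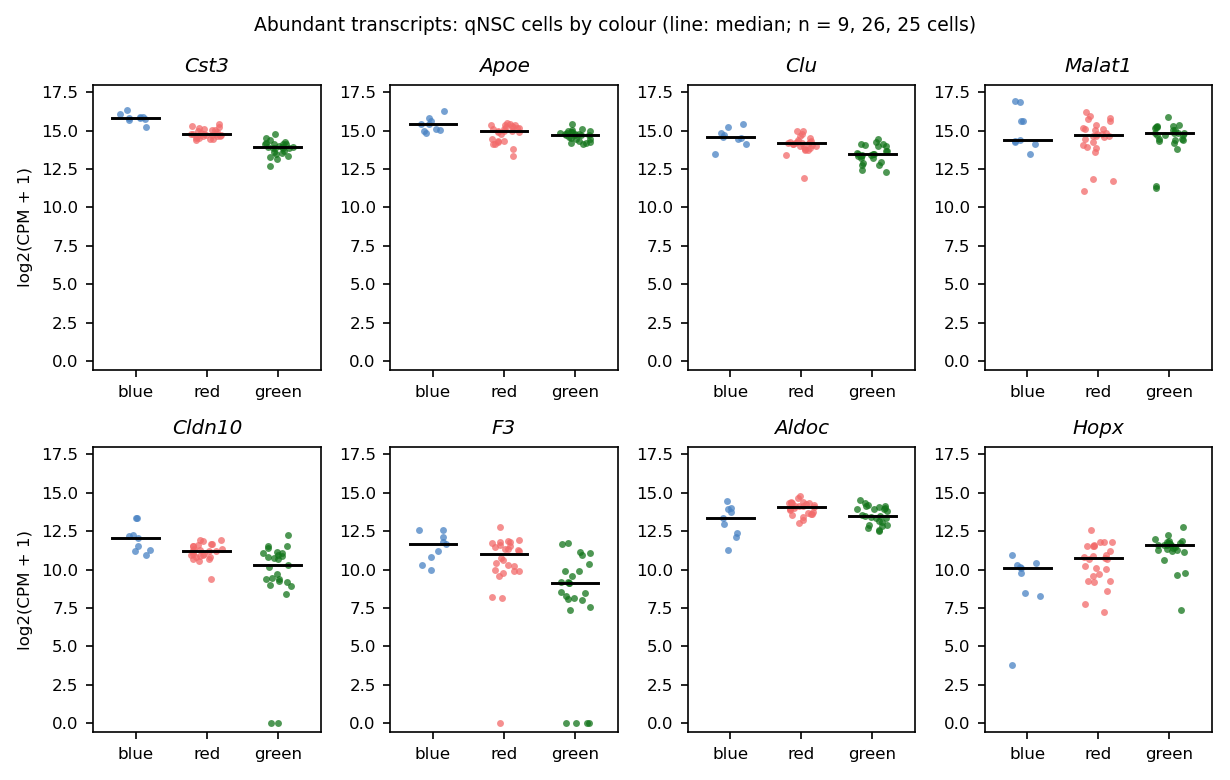
log2(CPM + 1) of 8 abundant transcripts in each qNSC by colour (points, cells; line, median). Cst3 in the blue cells lies almost wholly above the other 51 cells, Apoe, Clu, Cldn10 and F3 are shifted up with overlap, and Aldoc and Hopx are lower in part of the blue cells.

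Of the genes past the rule, 44 were higher and met the rule with any of the 9 blue cells left out. The 15 with the largest differences are named here. Fuca2, Cd38, Arid1a, Tardbp, Thbs4, Pigf, Dgkb, Scaf4, Spire1 and Snrk counted as measured only through the blue cells. They were read in 8 (Scaf4) to 24 (Fuca2) of 51 others, which by itself sets their median in the others to 0. For these genes the median part of the rule therefore depended on the blue cells only. Fuca2, a secreted fucosidase (chromosome 10, 13499540 to 13519035), had 4.26, 324 and 937 CPM in the lowest, median and highest blue cell, against 0, 0 and 1678 CPM in the others. It reached 10 reads in 8 of 9 blue cells and 22 of 51 others, and had at least 1 read in all 9 blue cells and 24 of 51 others. The difference was 4.55, and 4.68 in the 4 cells. Cd38, an NAD-consuming surface enzyme (chromosome 5, 43868553 to 43912375), had a median of 687 CPM in blue cells and 0 in the others, with 10 or more reads in 6 of 9 and 16 of 51. Among the others 12 of 26 red and 4 of 25 green cells had 10 or more reads, and its difference of 4.28 was 6.52 in the 4 cells.

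Lgmn, a lysosomal cysteine protease, had 1.26 to 1023 CPM in blue cells with a median of 128, against 0 to 238 CPM with a median of 31.4. Hacd2, an enzyme of very long chain fatty acid elongation, was read in all 9 blue cells at 254 to 4740 CPM, against 40 of 51 others with 10 or more reads and a highest level of 1339.8 CPM. Dhrs7, a short-chain dehydrogenase of the endoplasmic reticulum, had medians of 657 and 220.4 CPM. It had no read in 1 blue cell and lay above the median of the others in 8. Its mean log2(CPM + 1) was 8.81 in blue, 7.07 in red and 4.61 in green cells. Selenbp1, which oxidises methanethiol, differed by 2.83, and Pigf, an enzyme of GPI anchor synthesis, by 3.28. At the cell surface Gabbr1, a subunit of the GABA-B receptor, differed by 2.65 and Thbs4, a matrix thrombospondin, by 3.38.

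The other named genes act inside the cell. Arid1a, a subunit of the SWI/SNF chromatin remodeller, had medians of 171 CPM in blue cells and 0 in the others, with 10 or more reads in 6 of 9 and 8 of 51. It differed by 4.10 in all blue cells and by 2.46 in the 4 cells. Tardbp, the RNA-binding protein TDP-43, differed by 3.49, and Scaf4, which acts in transcript termination, by 3.25. Dgkb, a diacylglycerol kinase, Spire1, an actin nucleator, and Snrk, a kinase related to AMPK, differed by 3.26, 2.87 and 2.73. Of these 15 genes 12 also met the rule in the 4 cells, all but Fuca2, Dgkb and Hacd2. With the 2-month cells only 13 did so, and with the 4.5-month cells only 11. The genes were chosen from these same cells, so these counts are no independent support. Exons of Tardbp overlap those of Masp2 and exons of Pigf those of Rhoq, and the libraries do not record the strand, so those reads cannot be told apart with certainty.

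Of 9 measured growth factor receptors 5 were higher and 2 met the rule, the cytokine receptor Lifr at 2.17 and the insulin-like growth factor receptor Igf1r at 1.28, and 4 were lower. The median difference of 0.91 was 1.63 in the 4 cells and changed sign in 3 of 25 settings, among them the comparison with red cells alone. The summed level of the list was nonetheless lower in 6 of 9 blue cells than the median of the others, with medians of 2256 CPM in blue cells and 2772 CPM in the others. Of 6 measured Wnt genes the receptor Fzd2 was higher by 1.61 and the kinase Gsk3b lower by 2.55 on the log2 scale. Ion channels, pumps and gap junctions had 3 of 19 genes higher by the rule, Kcnj10, Ttyh3 and the pump regulator Fxyd1, and the channel Kcnn2 lower, with a median of 0.14 that changed sign in 9 of 25 settings. Of 17 measured genes of extracellular matrix and adhesion 8 were higher and 9 lower, with a median of −0.08, and the summed level had medians of 25335 CPM in blue cells and 21660 CPM in the others. The proteoglycan Ncan was higher by the rule at 1.11. Cdh2 (N-cadherin) and Itgb1 (integrin beta 1), both known for anchoring stem cells in their niche, were lower, at −3.04 and −2.82.

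Some of the genes with the largest negative differences had almost no reads in any blue cell, among them Sfxn1, Sars and Ankrd46. Sfxn1, the mitochondrial serine transporter (chromosome 13, 54071869 to 54108342), had at most 8.53 CPM in the 9 blue cells, against a median of 192 and a maximum of 831 CPM in the others. It reached 10 reads in 0 of 9 blue cells (exact 95% interval up to 33.6%) and 43 of 51 others (84.3%), in 22 of 26 red and 21 of 25 green cells. The difference was −5.60, and −6.32 in the 4 cells, which were among the cells used to choose the gene. The part of coverage in this difference was not tested. Sars, the seryl-tRNA synthetase, likewise had at most 6.77 CPM in blue cells against a median of 148 CPM, with 10 or more reads in 0 of 9 and 32 of 51. Ankrd46 had at most 4.52 CPM in blue cells against a median of 112.5 CPM, with 0 of 9 and 29 of 51.

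Other named genes were read in few blue cells. Timm17a, of the mitochondrial import channel, Cyp4f15, a cytochrome P450, Eif3i, a translation initiation subunit, Lonp2, a peroxisomal protease, and Nucb1, a calcium-binding Golgi protein, each reached 10 reads in 1 of 9 blue cells and in 32 to 40 of 51 others. Their differences ran from −4.39 to −4.01. Fkbp4, an HSP90 co-chaperone, Cdk2ap1, a CDK2-associated protein, Psma6, a proteasome subunit, Atxn10 and Itfg1 reached 10 reads in 2 of 9 blue cells and 38 to 42 of 51 others. Luzp2 did so in 4 and 46. Of the 15 lowest named genes 13 met the rule in the 4 cells, and Fabp7 and Psma6 did not. These genes too were chosen with those 4 cells included.

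**Figure D4:**
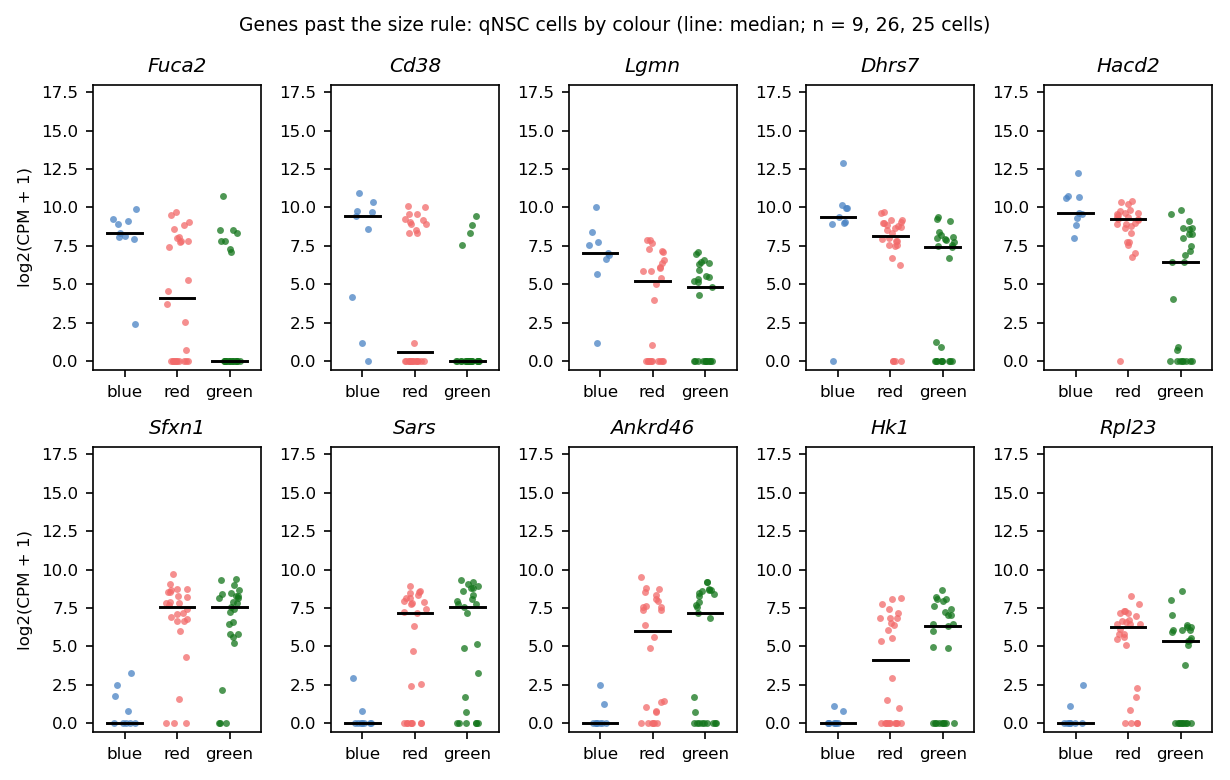
log2(CPM + 1) in each qNSC by colour (points, cells; line, median) for 5 genes higher (top) and 5 genes lower (bottom) in the blue subset by the size rule. Sfxn1, Sars, Ankrd46, Hk1 and Rpl23 are at or near 0 in all 9 blue cells and spread over 0 and high values in both other colours.

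Several lists of genes that make and fold proteins had medians below the shift of −0.85. All measured genes with a mean log2(CPM + 1) from 3 to 9 had medians of −1.15 to −1.03, which are nearer to these lists. Chaperones had the lowest median difference of the lists with at least 10 measured genes, −2.07 over 27 genes, with 11 lower and 0 higher by the rule. Their summed level overlapped between the sides, with medians of 9461 CPM in blue cells and 11467 CPM in the others. Cct7 and Cct3, subunits of the cytosolic chaperonin, differed by −3.98 and −3.58. The median stayed below 0 in all 25 settings and was −0.47 in the 4 cells, where all measured genes had 0.33. Ribosomal proteins had 27 of 71 genes lower and 0 higher by the rule, with a median of −1.48, and −0.11 in the 4 cells. The summed level of the ribosomal list had medians of 4759 CPM in blue cells and 5580 CPM in the others. Rpl23 had at most 4.52 CPM in blue cells against a median of 54.5 CPM, and 0 of 9 against 34 of 51 cells with 10 or more reads. Ribosomal proteins have many processed pseudogenes, which can take or lend reads.

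Translation factors had 14 of 32 genes lower and 0 higher, and the proteasome 14 of 35 lower and 1 higher. Their medians of −1.37 and −1.59 were 0.08 and 0.10 in the 4 cells. The summed level of the translation factors was 1477 to 5591 CPM in blue cells with a median of 4796, against 3569 to 10913 CPM with a median of 5851, and all 9 blue cells lay below that median. The same held for spliceosome and hnRNP genes, with medians of 5182 CPM in blue cells and 6795 CPM in the others, but 9 of 34 genes lower by the rule is near the share of all measured genes, and their median of −1.02 is near the shift of −0.85.

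The result for energy metabolism depended on which blue cells were used. Glycolysis had 7 of 21 genes lower and 0 higher by the rule, with a median of −1.18, and 0.46 in the 4 cells. Its summed level was 6170.3 to 36865 CPM in the blue cells with a median of 18230.0, against 12683 to 50144.9 with a median of 30298, and in the 4 cells it was 25034.5 to 36865 CPM. Hk1, the brain hexokinase, had at most 1.18 CPM in blue cells against a median of 45.6 CPM, with 0 of 9 and 29 of 51 cells at 10 or more reads, and differed by −3.87 in the 4 cells too. Tpi1, triosephosphate isomerase, differed by −3.69 over all blue cells but by 0.56 in the 4 cells, and did not meet the rule with each blue cell left out. Oxidative phosphorylation had a median of −0.98 over 77 genes, near the shift of all genes, with 6 lower and 1 higher by the rule. Fatty acid oxidation and cholesterol synthesis had medians of −0.96 and −1.35, and 1.09 and 1.54 in the 4 cells. By the rule 4 of 18 and 4 of 15 genes were lower and 0 higher, shares near the 21.6% of all measured genes. The summed level of cholesterol and fatty acid synthesis had medians of 6103 CPM in blue cells and 6320.2 CPM in the others.

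The summed level of 25 lipoprotein and lipid handling genes was 57640 to 124979 CPM in blue cells with a median of 70851, against 27454 to 86019 CPM with a median of 51486, and all 9 blue cells lay above that median. Apoe and Clu make up most of this sum, and the median difference over its 14 measured genes was −0.17, or 0.20 in the 4 cells. Lysosomal genes had a median of −0.96, which was 0.18 in the 4 cells. Within them 3 subunits of the proton pump that acidifies the lysosome were lower, Atp6v1h, Atp6v1a and Atp6v1b2, at −3.76, −3.75 and −2.53, and another, Atp6v0c, was higher at 1.23.

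**Figure D5:**
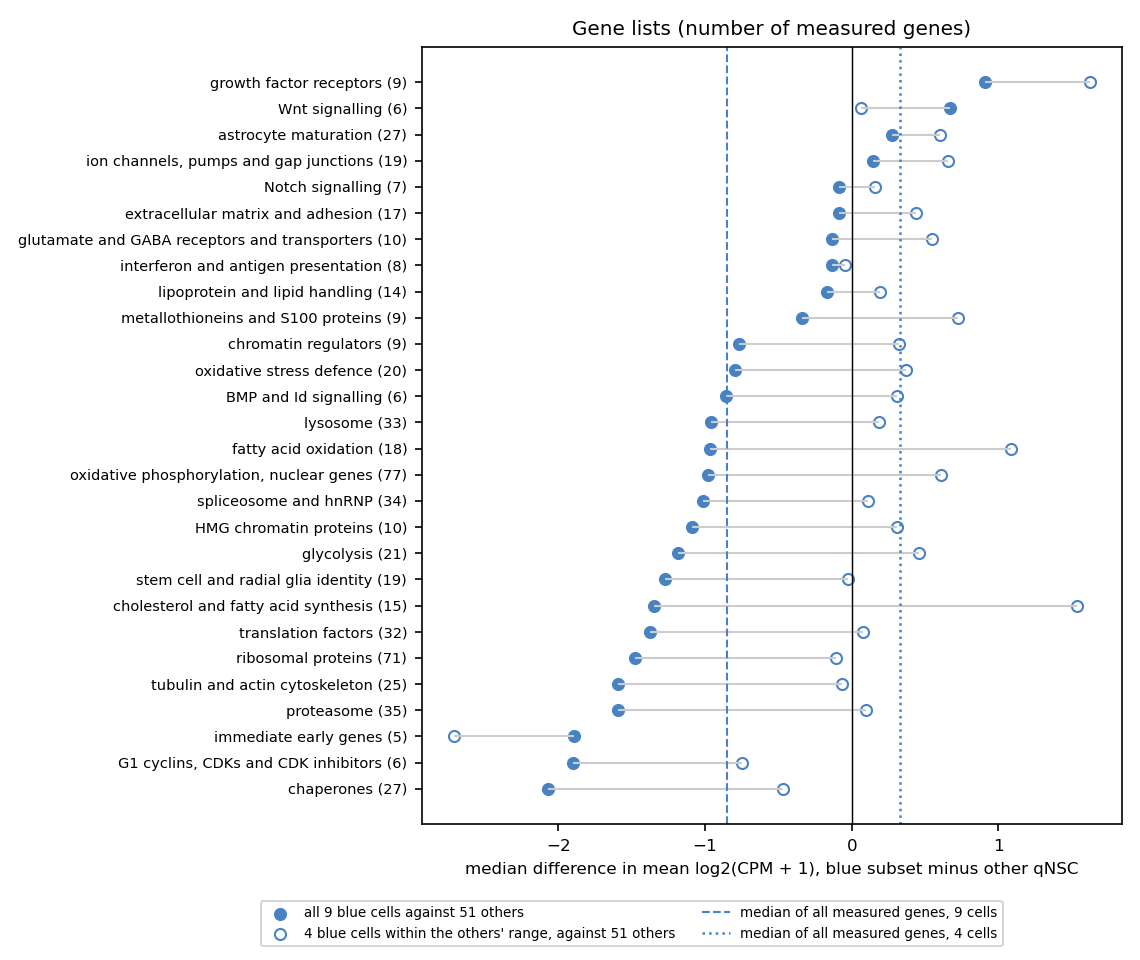
Median difference in mean log2(CPM + 1), blue subset minus other qNSC, of each gene list with at least 5 measured genes (number in brackets), for all 9 blue cells (filled) and for the 4 within the others' range in well-covered genes (open). Dashed and dotted lines mark the medians of all measured genes, −0.85 and 0.33; chaperones, immediate early genes and G1 regulators lie furthest left in both.

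Mki67, the proliferation antigen, had no read in any qNSC, while G1 regulators were read on both sides. Among 6 measured G1 regulators the D-type cyclins Ccnd2 and Ccnd3 differed by −1.92 and −3.02, and their partner kinase Cdk4 by −2.08, while Rbl2, a pocket protein that holds cells out of the cycle, was higher by 2.09. The summed level of the 26 listed genes was 149 to 1790.2 CPM in blue cells with a median of 399, against 140 to 4280.5 CPM with a median of 1096, and 8 of 9 blue cells lay below that median. All 5 measured immediate early genes, which respond to stimulation and to tissue dissociation, were lower, with Jun, Fos and Dusp1 past the rule at −2.88, −2.05 and −1.90. Of all measured genes 72.5% were lower and 21.6% were lower by the rule. In the 4 cells 3 of the 5 immediate early genes were lower. Their median relative to all genes changed sign in 3 of 24 settings, among them 4.5-month cells only. Fos reached 10656 CPM in 1 of the other qNSC and at most 264 CPM in a blue cell.

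Markers of no single other cell type were shared by the blue cells. At least 50% of the markers of another type had 10 or more reads in 2 of the 9 blue cells, endothelial in 1 and mural in 1, and in 3 of the 51 others, oligodendrocyte in 2 and endothelial in 1. The endothelial sum was 0 to 354 CPM in blue cells and 0 to 415 CPM in the others, with Flt1 and Cdh5 at 0 in all blue cells. The mural sum was 2.12 to 347 CPM and 0 to 609 CPM, with Tagln at 0 in blue cells. Of the oligodendrocyte precursor markers Pdgfra, Sox10, Neu4, Lhfpl3, Gpr17 and Olig2 had no read in a blue cell, and 7 of 10 microglial markers had none. The microglial sum nevertheless ran to 2681 CPM in blue cells and 951 CPM in the others, with P2ry12 the highest of its markers in the blue cells. The sum of ependymal and choroid markers ran to 925 CPM in blue cells and 229 CPM in the others. Neuroblast markers reached 10 reads for at most 12.5% of the list in a blue cell, and Dcx had no read there. At least 50% of 12 astrocyte markers were found in 7 of 9 blue cells and 47 of 51 others, and at least 50% of 12 quiescent stem cell markers in 4 of 9 and 47 of 51. All 4 blue cells within the others' range in well-covered genes passed both limits, so the blue cells short of quiescent stem cell markers were those below that range. Summed quiescent stem cell markers in the 4 cells, at 19203 to 26642 CPM, lay around the median of 20539 CPM of the others. Without the 5 cells that carried markers of another type, 211 genes were higher and 546 lower, and the part of such markers in single results was not tested.

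The blue cells were about as alike among themselves as the other qNSC. Over the 216 genes with a mean log2(CPM + 1) of at least 8, the median Pearson correlation between 2 blue cells was 0.453, over 36 pairs. It was 0.389 between a blue and another qNSC, over 459 pairs, and 0.432 between 2 others, over 1275 pairs. These values describe pairs of cells that share a class and a platform, and the ranges overlapped widely. Within these 216 genes the size rule gave 7 higher and 15 lower in the blue subset, with a median difference of −0.46.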

How the data were processed

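Each of the 89 samples is 1 cell. The authors deposited estimated counts per gene and cell, TPM per gene and cell, and a table with a class and a colour code per cell. Per the submitters' processing notes STAR, RSEM and mm10 were used; versions and settings are not given in the sources used here. The deposited TPM sum to 1000000 per cell and served only as an alternative. Of the estimated counts above 0, 4.44% were not whole (tolerance 1e-06), and all were rounded to whole numbers. They were scaled to CPM and analysed as log2(CPM + 1). The added 1 shrinks differences between low levels. Where many cells have no read, the difference also reflects the share of such cells and can exceed the ratio of mean CPM. Gfap differed by −3.56 with a mean CPM 2.63 times higher in the others. Fuca2 differed by 4.55 with a mean CPM 2.65 times higher in blue cells. The differences are therefore not fold changes.

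No label names an animal, so neither tests nor p-values were computed. SDs describe cells, not animals. The exact intervals for shares of cells treat cells as independent draws and leave out differences between animals. Amplified copies cannot be told from separate molecules. No 2 cells held identical values. As each library holds 1 sorted cell, no doublet caller was run. Total counts ran from 234607 to 1896072 over the 89 cells. No mitochondrially encoded gene was among the 24411 genes, so their share was not analysed here.

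Genes were named if they met the size rule with each of the 9 blue cells left out, the 15 largest differences each way, without predicted genes, pseudogenes, Y-linked genes, Xist and Tsix. To these were added the given markers, identity genes and 2 members of each of the 28 lists with at least 5 measured genes. Other genes past the rule are given as list members. The members, lists and rules were chosen with earlier results of these data known. Positions are from GENCODE M21 on mm10, found for all 94 named genes, 28 of which share exon bases with another gene. The procedure was tested on simulated data. Alternatives were TPM, a pseudocount of 10, thinning to 200000 reads, other detection limits, each age, each colour of other qNSC, scaling by size factors over 99 genes, and leaving out cells. Python 3.11.15, pandas 2.3.3, numpy 2.4.6, scipy 1.17.1 and matplotlib 3.10.9 were used.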

Additional observations from a re-analysis of the deposited data

Results flagged for a closer look

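Among 50 values examined in the 9 blue cells, 12 had 1 cell farther from the others than Dixon's 95% critical ratio of 0.493 allows. About 1 in 20 would be picked by chance among normally distributed values, which these are not, as many cells are at 0. Where all other blue cells are at 0 any read gives a ratio of 1, as for Cyp4f15, Eif3i and Nes. The number picked is therefore no measure against chance. All values here are log2(CPM + 1). The 4.5-month cell 28, which had the fewest counts and 503 genes with 10 or more reads, was lowest in Fuca2 (2.40), Hopx (3.79) and Id4 (3.79). The 2-month cell 52 was lowest in Lgmn (1.18) and in Dhrs7 (0). Single cells stood high in genes that were low in the rest of the blue subset. A 2-month cell with 1415444 counts had 7.75 for Timm17a and 7.76 for Cyp4f15. The 2-month cell 53 had 5.94 for Eif3i and 7.57 for Lonp2, and the 2-month cell 64 had 7.74 for Nucb1. A 4.5-month cell with 442931 counts had 2.96 for Sars, and the 4.5-month cell 31 had 1.13 for Nes, both near the level of a few reads. The 2-month cell with 1415444 counts and cells 53 and 64 are among the 4 blue cells that lie within the range of the other qNSC in genes with 10 or more reads.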

How the results depend on the processing

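The counts past the size rule (5.38% of genes higher, 623 genes lower) moved with the cells and the genes used. The higher count was 80 with a pseudocount of 10, 649 with 2-month cells only (256 over the same genes) and 276 with 4.5-month cells only (170 over the same genes). In the 4 blue cells within the others' range it was 644. The lower count was 950 with 4.5-month cells only (858 over the same genes) and 405 in the 4 cells, also over the same genes. Among genes with a mean log2(CPM + 1) of at least 8 the counts were 7 and 15. Leaving out 1 blue cell gave 177 to 232 higher and 546 to 716 lower. The difference in median genes with a read of −319 was −1344 for genes with 10 or more reads, 159.5 at 2 months and 226.5 in the 4 cells; leaving out 1 cell gave −519 to −202.5. The ratio of median total counts was 0.791, 0.767 to 0.792 with 1 cell left out and 0.485 with 4.5-month cells only. Of the named genes Id2 turned to 0.41 and Smarcb1 to 2.04 at 2 months. In the 4 cells Sox9 turned to 0.10, Hadh to 0.12, Tpi1 to 0.56, Sirt2 to 0.29, Smarcb1 to 0.37 and Hmgb1 to 0.19. The cause was not tested. All 15 genes named in each direction kept the rule with TPM, a pseudocount of 10, thinned counts and size factors. Those settings use the same cells from which the genes were chosen. No paired analysis was possible because no test was run and the numbers in the titles only name cells. A gene without reads in a shallow cell may still be expressed there.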
